A study of Mus musculus with 6 samples.

Results

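The 10 genes described here encode the adaptors and IRAK proteins that carry signals from Toll-like receptors (TLRs) and from receptors of the IL-1 family, together with inhibitors of the same step. They are Myd88, Tirap, Ticam1, Ticam2, Irak4, Irak1, Irak2, Irak3, Tollip and Sigirr. They were chosen by gene symbol, with the anti-CD40 minus vehicle differences of these same libraries already known, and all 10 were found among the 770 genes of the deposited table. Their differences between groups are therefore a description, and no test of the family was made. The samples were RNA of primary oral squamous cell carcinomas raised in mice with the chemical carcinogen 4NQO. There were 3 samples given vehicle and 3 given agonistic anti-CD40, an antibody that activates the receptor CD40. All 6 tumours were 4NQO-induced and formalin-fixed, and the labels give no strain, age, dose or time, and no statement that the samples came from separate animals. Any p-value is thus set by how far these libraries scatter, and some of that scatter may be technical.

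TLRs and IL-1 family receptors share an intracellular TIR domain. On binding of ligand, most of them recruit MyD88, which assembles with IRAK4 and then IRAK1 or IRAK2, and the complex activates the ubiquitin ligase TRAF6 and from there NF-κB and MAP kinases. A separate branch through TRIF, the product of Ticam1, leads to type I interferon. IRAK-M (Irak3), Tollip and Sigirr restrain the MyD88 branch, and IRAK-M is best known from monocytes and macrophages.

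Values are log2 normalized counts, and a difference is anti-CD40 minus vehicle on that scale. Where 3 values are given for a group, they follow the replicate numbers 1 to 3. Library totals of the recovered whole counts ran from 333400 to 578598. Background was set at the mean of the 8 negative control probes plus 2 SD, which 548 to 649 genes exceeded per library and 9 of the 10 family genes exceeded in all libraries. Vehicle 3 had the lowest median of all genes, 7.68, where the other libraries had 7.90 to 8.19. It was also the lowest library for 6 of the 10 family genes. Means of the 20 housekeeping genes lay between 11.01 and 11.11 in every library. Whether the library scaling used these genes was not given, so their closeness may follow from it. All 5 measured squamous epithelial markers (Epcam, Cdh1, Egfr, Itga6 and Itgb4) were above background in every library. Keratin genes of that list were not among the measured genes. Levels of different probes are not compared with each other, since probe efficiency is unknown.

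Irak3, an inhibitor of the pathway, had the largest difference in the family, 0.62 log2 higher in anti-CD40 tumours. The TIR-domain inhibitor gene Sigirr was higher by 0.46, the TRIF adaptor gene Ticam1 by 0.39 and its partner Ticam2 by 0.38. Irak1 was higher by 0.23, Myd88 by 0.15, Irak2 by 0.14 and Tirap by 0.10, while Irak4 (−0.13) and Tollip (−0.081) were lower in the mean. In all, 8 of the 10 genes had higher means in anti-CD40 tumours, beside 54.5% of all 770 genes. The median difference was 0.19 over the family (0.13 after quantile normalization), 0.15 without Irak3, and 0.038 over all genes. In bulk tumour RNA, more cells of a type and more RNA per cell cannot be told apart.

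These differences did not pass the test. Limma with Benjamini-Hochberg adjustment called 0 of the 10 genes and 0 of 770 (0%), and each family gene had an adjusted p of 0.974. At an unadjusted p under 0.05 it counted 1 family gene, Irak3, and 25 of 770 (3.25%), and limma-voom on the recovered counts called 0 genes and counted 26 at that level. The values of the groups did not overlap for Irak3, Sigirr, Ticam2 and Irak1. These 4 of 10 genes were all higher in anti-CD40 tumours, beside 6.75% of all genes that were higher without overlap. No family gene was lower without overlap, beside 3.51% of all genes, and 10.3% of all genes did not overlap in either direction. After quantile normalization, which forces all libraries to the same distribution, Irak3 alone of these stayed apart and higher (5.58% of all genes), and Tollip became lower without overlap (5.71%).

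**Figure D1:**
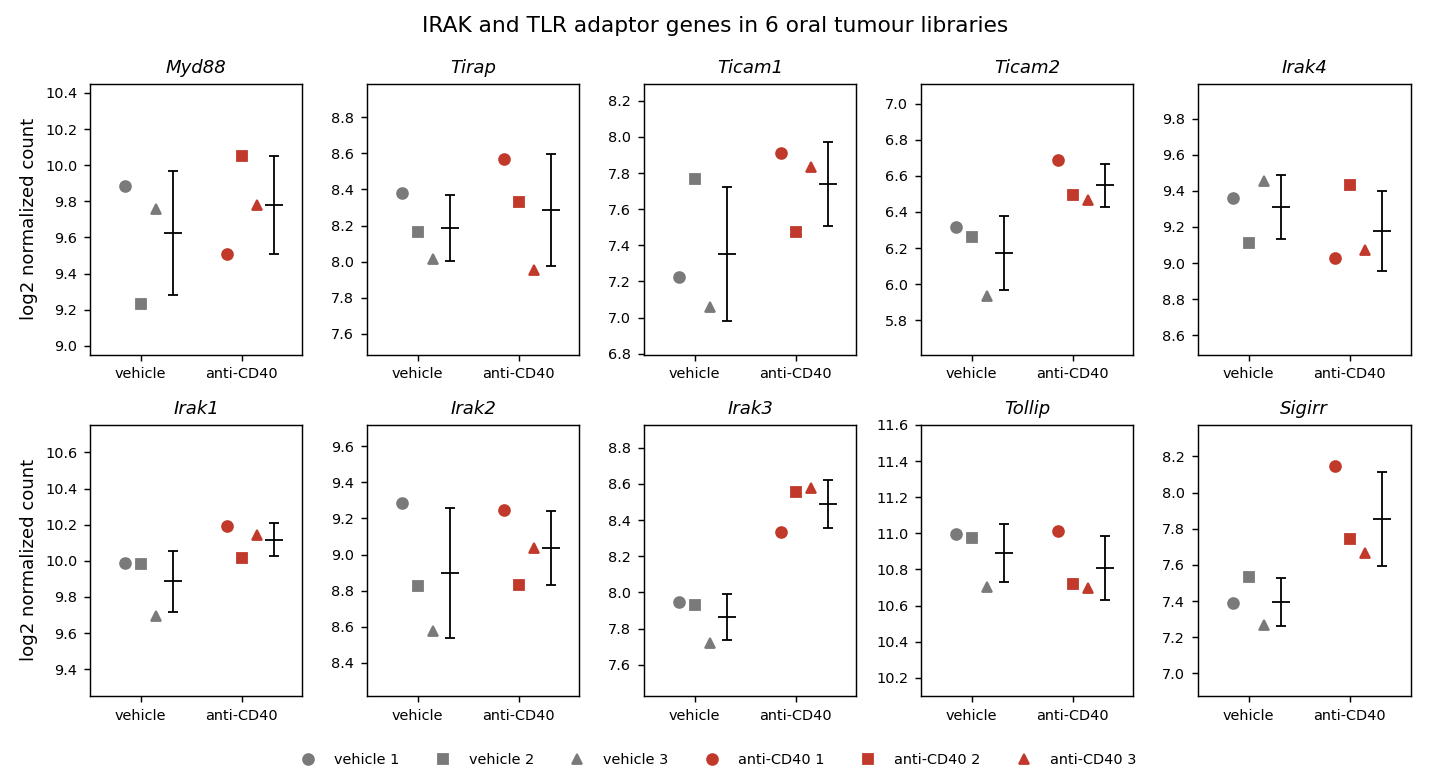
Log2 normalized count of each of the 10 genes in the 3 vehicle (grey) and 3 anti-CD40 (red) libraries, with the group mean and SD (n = 3) as black bars; each panel spans 1.5 log2 units around the gene's own mean. The groups lay apart for Irak3, Sigirr, Ticam2 and, narrowly, Irak1, and overlapped for the other genes.

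The adaptors gave mixed values. Myd88, the adaptor of nearly all TLRs and of IL-1 receptors, was 9.89, 9.23 and 9.76 in vehicle and 9.51, 10.05 and 9.78 in anti-CD40 tumours. Vehicle 2 was the low library and anti-CD40 2 the high one, and the groups overlapped. The group means were 9.63 ± 0.35 and 9.78 ± 0.27 (SD, n = 3 each), 0.15 apart (SE 0.27), and the difference was −0.044 once vehicle 2 was left out, 0.017 without anti-CD40 2 and 0.29 without anti-CD40 1. Tirap, which bridges TLR2 and TLR4 to MyD88, was 8.38, 8.16 and 8.02 in vehicle and 8.57, 8.33 and 7.95 in anti-CD40 libraries. Both the highest and the lowest value belonged to anti-CD40 libraries. Its difference of 0.098 (SE 0.25) was −0.044 without anti-CD40 1 and 0.26 without anti-CD40 3.

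Both genes of the TRIF branch were higher in the mean. Ticam1, which encodes TRIF, the adaptor of TLR3 and of the endosomal signal of TLR4, was 7.22, 7.77 and 7.06 in vehicle and 7.91, 7.47 and 7.84 in anti-CD40 libraries. Vehicle 2 lay within the anti-CD40 range, so the groups overlapped, with means of 7.35 ± 0.37 and 7.74 ± 0.23. The difference of 0.39 (SE 0.27) was 0.60 without vehicle 2 and 0.24 without vehicle 3. Ticam2, which encodes TRAM, the bridge from TLR4 to TRIF, was 6.32, 6.26 and 5.94 in vehicle and 6.69, 6.49 and 6.47 in anti-CD40 libraries. Every anti-CD40 value exceeded every vehicle value, with a gap of 0.15 log2, and the difference was 0.38 (SE 0.22). Ticam2 was the weakest signal of the family, with 22 to 43 recovered counts, and in vehicle 2 it did not exceed background. The 22 counts there carry a 95% exact Poisson interval of 13.8 to 33.3, which covers counting error only. With the background subtracted its difference was 0.60, and with 50 added before the logarithm it was 0.23.

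The kinase genes gave small differences of either sign. Irak4, the kinase that MyD88 recruits first, was 9.36, 9.11 and 9.46 in vehicle and 9.03, 9.43 and 9.07 in anti-CD40 libraries. Its low values were in anti-CD40 1, anti-CD40 3 and vehicle 2, and the groups overlapped (9.31 ± 0.18 and 9.18 ± 0.22). The difference of −0.13 (SE 0.23) kept its sign with any library left out, between −0.26 and −0.056. Irak1, the kinase that IRAK4 phosphorylates, was 9.99, 9.98 and 9.69 in vehicle and 10.19, 10.02 and 10.14 in anti-CD40 libraries. The groups lay apart by 0.033 log2 only, with means of 9.89 ± 0.17 and 10.12 ± 0.090. Its difference of 0.23 (SE 0.21) was 0.13 without vehicle 3 and 0.13 after quantile normalization, where the groups overlapped. Irak2, which can stand in for IRAK1 in the complex and sustains its signal, was 9.29, 8.83 and 8.58 in vehicle and 9.24, 8.83 and 9.04 in anti-CD40 libraries. Its vehicle range enclosed all anti-CD40 values. The difference of 0.14 (SE 0.26) was −0.020 without vehicle 3 and 0.33 without vehicle 1.

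Irak3 had the widest gap between the groups in this family. It was 7.95, 7.93 and 7.72 in vehicle and 8.33, 8.55 and 8.58 in anti-CD40 tumours. The lowest anti-CD40 value lay 0.39 log2 above the highest vehicle value. Group means were 7.87 ± 0.13 and 8.49 ± 0.13 (SD, n = 3 each), 0.62 apart (SE 0.21), a ratio of 1.54 on the deposited scale, which understates folds of weak probes. With any library left out the difference lay between 0.55 and 0.70, and under the other processing choices between 0.53 and 0.70. Of those choices, the low-value filter, limma with trend and the replicate block cannot change a difference of group means. The Irak3 values rest on 73 to 152 recovered counts. The lowest count, in vehicle 2, carries an exact Poisson interval of 57.2 to 91.8.

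The other inhibitors went separate ways. Sigirr encodes a receptor-like protein with a TIR domain that dampens IL-1 receptor and TLR signals. It was 7.39, 7.53 and 7.27 in vehicle and 8.15, 7.74 and 7.67 in anti-CD40 libraries, so all anti-CD40 values were higher, with a gap of 0.13 log2, and anti-CD40 1 was highest. The means were 7.40 ± 0.13 and 7.85 ± 0.26, 0.46 apart (SE 0.23), or 0.31 with anti-CD40 1 left out. Tollip, which binds IRAK1 and limits its activation, was 10.997, 10.97 and 10.70 in vehicle and 11.01, 10.72 and 10.70 in anti-CD40 libraries. Vehicle 1, vehicle 2 and anti-CD40 1 formed the upper values and the other 3 libraries the lower. Tollip had the narrowest range of the family, 0.32 log2 over the 6 libraries, and its difference of −0.081 (SE 0.22) was −0.21 after quantile normalization. With 1 library left out it ran from −0.18 without anti-CD40 1 to −0.024 without anti-CD40 3.

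**Figure D2:**
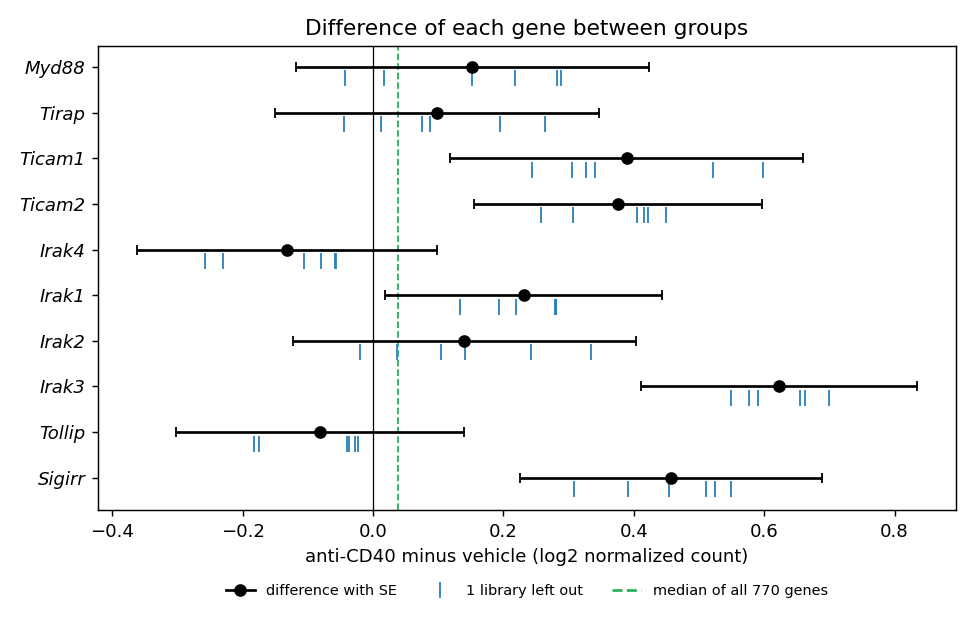
Anti-CD40 minus vehicle difference in log2 normalized count for each gene, with its limma standard error (black), the 6 values with 1 library left out (blue ticks) and the median of all 770 genes (green dashed line). Irak3, Sigirr, Ticam1, Ticam2 and Irak1 stayed above 0 and Irak4 and Tollip below 0 with any library left out. For Irak3, Sigirr, Ticam2 and Irak1 this sign was fixed beforehand, since their groups did not overlap. Myd88, Tirap and Irak2 took both signs.

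The spread between replicates was small in this family beside the panel. The within-group SD had a median of 0.20 over the 10 genes, 0.39 over all 770 genes and 0.33 over the 523 genes above background in all libraries. All 10 family genes lay below the median of all genes. Irak3 (0.13) and Irak1 (0.14) had the smallest within-group SD, and Myd88 and Ticam1 the largest, 0.31 each.

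Taking the difference between 2 probes inside a library cancels the library factor, apart from the offset added before the logarithm. Irak3 minus Irak4 was −1.41, −1.18 and −1.74 in vehicle and −0.69, −0.88 and −0.50 in anti-CD40 libraries. Relative to Irak4, Irak3 was thus higher in every anti-CD40 library than in any vehicle library, by 0.75 in the mean. Irak3 minus Irak1 was −2.04, −2.05 and −1.97 in vehicle and −1.86, −1.47 and −1.56 in anti-CD40 libraries, again without overlap and 0.39 apart. Against Myd88 the groups overlapped, since vehicle 2, at −1.30, lay among the anti-CD40 values of −1.17, −1.50 and −1.20. Sigirr minus Tollip was −3.61, −3.44 and −3.44 in vehicle and −2.86, −2.98 and −3.03 in anti-CD40 libraries, a shift of 0.54 without overlap between these inhibitors. Irak1 minus Irak4 and Irak2 minus Irak1 overlapped between groups, with shifts of 0.36 and −0.091. These gene pairs were chosen with the values in view. Irak3 had the widest gap of the family and Irak4 its most negative difference. The share of all gene pairs without overlap was not counted, so the pairs are a description only.

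**Figure D3:**
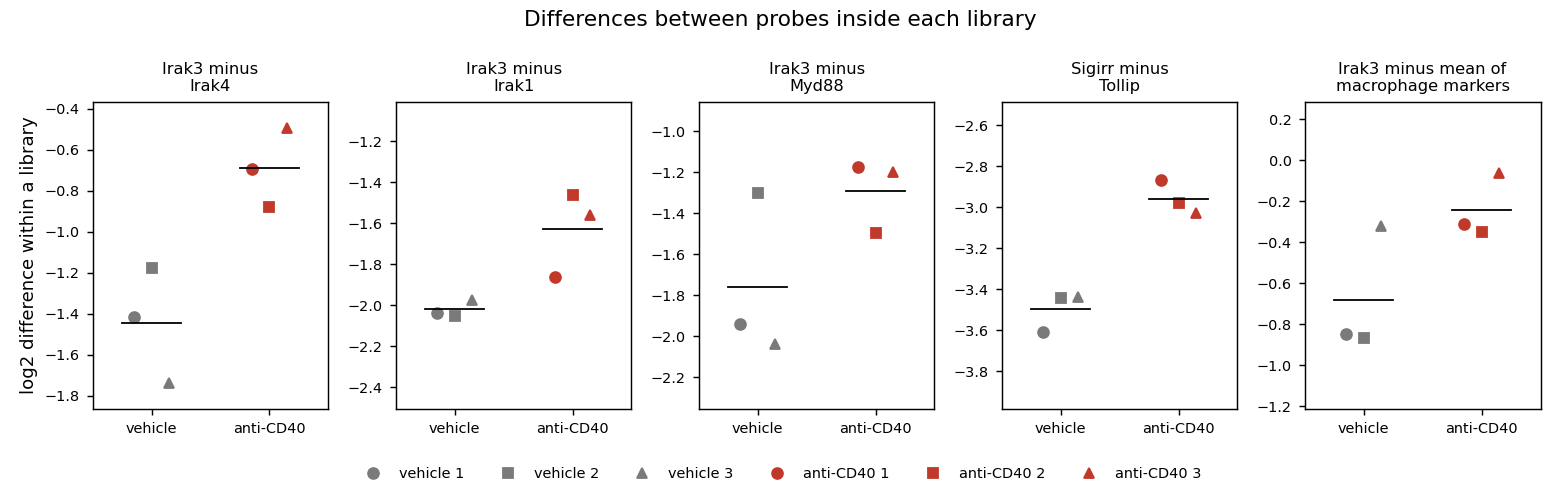
Log2 difference between probes within each library for Irak3 against Irak4, Irak1, Myd88 and the mean of 15 macrophage and monocyte markers, and for Sigirr against Tollip; black lines are group means and each panel spans 1.5 log2 units. The groups lay apart for Irak3 minus Irak4, Irak3 minus Irak1 and Sigirr minus Tollip, and overlapped for the other 2. The gene pairs were chosen with the values in view.

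Of 15 measured macrophage and monocyte markers, 11 were higher and 4 lower in anti-CD40 tumours, with a median difference of 0.30, and limma called 0. The list mean was 8.80, 8.80 and 8.04 in vehicle and 8.64, 8.90 and 8.64 in anti-CD40 libraries, so vehicle 3 alone was low. Without vehicle 3 the mean difference went from 0.19 to −0.067 and the median to 0.078, with 9 markers higher and 6 lower. With any other library left out, the mean lay between 0.098 and 0.31 and the median between 0.24 and 0.47. Irak3 without vehicle 3 differed by 0.55. The sum of the 15 on the linear scale was 6199 to 10284 in vehicle and 8784 to 10315 in anti-CD40 libraries, and 13 of the 15 were above background in all libraries. Cd163, a scavenger receptor of resident macrophages, was 7.90 ± 0.50 and 8.57 ± 0.37, and Marco, above background in only 1 library, was 5.25 ± 0.36 and 5.80 ± 0.50. The pan-macrophage gene Cd68, named after its values were seen, was 9.45 ± 0.56 and 9.32 ± 0.13. Irak3 minus the mean of these markers was −0.85, −0.87 and −0.32 in vehicle and −0.31, −0.35 and −0.063 in anti-CD40 libraries, so the groups overlapped through vehicle 3. Against single genes, picked with their values known, Irak3 minus Cd68 shifted by 0.75 and Irak3 minus Tlr4 by 0.37, both without overlap. Irak3 minus Csf1r shifted by 0.37 with overlap. The 4 lower markers were Cd68 (−0.13), Fcgr1 (−0.20), Cybb (−0.33) and Ccr2 (−0.46). The 11 higher ones ran from 0.0022 for Emr1 to 0.67 for Cd163. Cd163, without overlap, and Marco (0.55) had the largest differences of the list, beside 0.62 for Irak3. The part of macrophage content in the Irak3 values was not tested. Of 11 neutrophil markers 10 were higher, but only 5 of the 11 were above background in all libraries. The median difference over the 11 was 0.56 (0.13 without vehicle 3 and 0.97 without vehicle 2). Their sums were 29254 to 147370 in vehicle and 29160 to 151285 in anti-CD40 libraries. The list mean of the 11 was 7.19, 9.04 and 6.80 in vehicle and 8.87, 8.75 and 7.12 in anti-CD40 libraries, with overlap. The part of neutrophil content in the Irak3 values was not tested. Of the 5 epithelial markers 4 were lower, with Cdh1, which encodes E-cadherin, at 12.39 ± 0.13 and 12.03 ± 0.097 without overlap.

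Receptors upstream of the family were divided. Of 15 measured TLR and co-receptor genes 8 were higher and 7 lower, with a median difference of 0.046, and limma called 0. That median was −0.12 without vehicle 3, −0.061 without anti-CD40 3 and −0.12 with background subtracted. The genes of lowest p were Tlr7, an endosomal receptor for single-stranded RNA, and Cd180, a TLR-like protein of B cells and dendritic cells. Tlr7 was 6.22, 6.54 and 5.90 in vehicle and 6.84, 6.60 and 6.83 in anti-CD40 libraries, a difference of 0.54 (SE 0.25) without overlap. Cd180 was 7.66 ± 0.53 and 6.97 ± 0.33, with groups that overlapped. Tlr4 and Tlr8, named after their values were seen, were the other receptors whose groups did not overlap. Tlr4, the receptor for bacterial lipopolysaccharide, was 9.10 ± 0.14 and 9.34 ± 0.049, and Tlr8 was 6.78 ± 0.49 and 7.31 ± 0.041. Of 7 IL-1 family receptor genes 3 were higher and 4 lower, with a median of −0.042 that was 0.13 without anti-CD40 3 and −0.29 without anti-CD40 2. Il1rl1, which encodes the IL-33 receptor, was 6.91 ± 0.45 and 7.85 ± 1.44, 0.94 apart but 0.11 without anti-CD40 2, and Il18r1 was 6.97 ± 0.20 and 6.67 ± 0.075, with groups only 0.0012 log2 apart.

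Lists of downstream kinases and transcription factors had medians near that of all genes. Of 20 measured ubiquitin ligase and kinase genes 13 were higher and 7 lower, with a median difference of 0.044 (−0.036 without vehicle 3) and 0 called. Traf6, the ligase activated by the IRAK complex, was 10.01 ± 0.40 and 10.10 ± 0.13, and Map3k7, which encodes the kinase TAK1, was 10.32 ± 0.060 and 10.24 ± 0.18. Both were named for their place after the IRAK complex, with their values known. The lowest p values were those of Ikbke, an inducible IKK-related kinase gene (8.66 ± 0.28 and 8.14 ± 0.27), and Mapkapk2, which encodes a kinase acting after p38 (11.56 ± 0.11 and 11.92 ± 0.25). Of 13 transcription factor genes 8 were higher and 5 lower, with a median of 0.073 (−0.025 without vehicle 3). The NF-κB gene Rel was 8.92 ± 0.31 and 8.37 ± 0.36, and the AP-1 gene Fos 11.86 ± 1.22 and 10.72 ± 0.46, a difference of −1.14 that was −0.54 without vehicle 1.

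Both lists of genes that the pathway can induce had medians below 0. Of 9 measured feedback inhibitor genes 4 were higher and 5 lower, with a median of −0.17, which was −0.015 when only genes above background in at least 3 libraries were kept. Tnfaip3, which encodes the deubiquitinase A20, was 8.57 ± 0.26 and 7.95 ± 0.53, while the MAP kinase phosphatase gene Dusp4 was 7.44, 7.43 and 7.42 in vehicle and 8.18, 7.45 and 8.35 in anti-CD40 libraries. Of 21 inflammatory output genes 6 were higher and 15 lower, with a median of −0.15 (−0.58 with background subtracted), and 8 of the 21 were above background in all libraries. The neutrophil chemokine gene Cxcl1 was 8.16, 8.36 and 8.67 in vehicle and 6.48, 8.61 and 6.72 in anti-CD40 libraries, with anti-CD40 2 inside the vehicle range. Ccl4, above background in 2 libraries, was 6.07 ± 0.27 and 5.60 ± 0.22 without overlap. Limma called 0 genes of both lists, and 0 genes of any receptor, downstream, feedback or output list had an unadjusted p under 0.05. With 1 library left out the medians ranged from −0.29 without anti-CD40 2 to 0.0021 without anti-CD40 3 for feedback inhibitors, and from −0.40 without vehicle 3 to 0.055 without anti-CD40 1 for outputs.

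**Figure D4:**
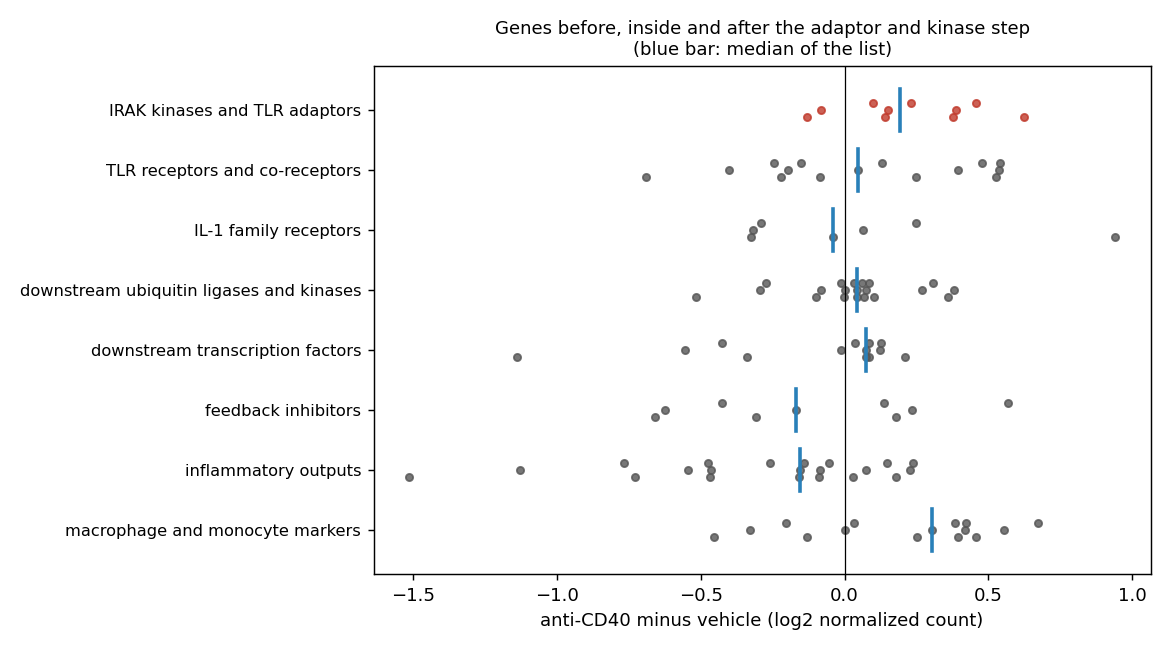
Anti-CD40 minus vehicle difference in log2 normalized count of each measured gene in the family (red) and in lists of receptors, downstream genes, induced genes and macrophage markers (grey), with list medians as blue bars. The family median is 0.19, that of the macrophage markers 0.30, and those of feedback inhibitors and inflammatory outputs lie below 0 at −0.17 and −0.15.

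The genes that lay closest to each family gene over the 6 libraries were found by the root mean square difference of log2 values centred on each gene's mean, among 514 other genes above background in all libraries. Closest to Irak3 were F13a1, which encodes the A subunit of coagulation factor XIII (0.096 log2), and the integrin gene Itga5 (0.14). Closest to Myd88 were the NF-κB gene Nfkb1 (0.11) and Traf6 (0.12), and all 3 were lowest in vehicle 2. Centred Myd88 was 0.18, −0.47 and 0.055 in vehicle and −0.19, 0.35 and 0.076 in anti-CD40 libraries, and Traf6 0.30, −0.48 and 0.046 and −0.11, 0.092 and 0.14. Closest to Sigirr were Mapkapk2 (0.084) and the antiviral adaptor gene Mavs (0.11), with anti-CD40 1 highest in each. Closest to Tollip were the p38 kinase gene Mapk14 (0.038) and the proteasome gene Psma2 (0.059). The closest genes were Cyld and Lrp1 for Irak1, Cd200 and Nrp1 for Irak2, Itga2 and Tcf7 for Irak4, Ifnar2 and Hdac3 for Tirap, Cd97 and Timd4 for Ticam1, and Colec12 and Ctsl for Ticam2, at 0.049 to 0.11 log2. Within the family, Irak1 and Ticam2 lay closest to each other (0.093), and Myd88 and Irak4 were each other's nearest (0.19). The genes were picked for likeness, so a pattern shared with a family gene follows from that choice. These distances describe 6 libraries that share their scaling.

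**Figure D5:**
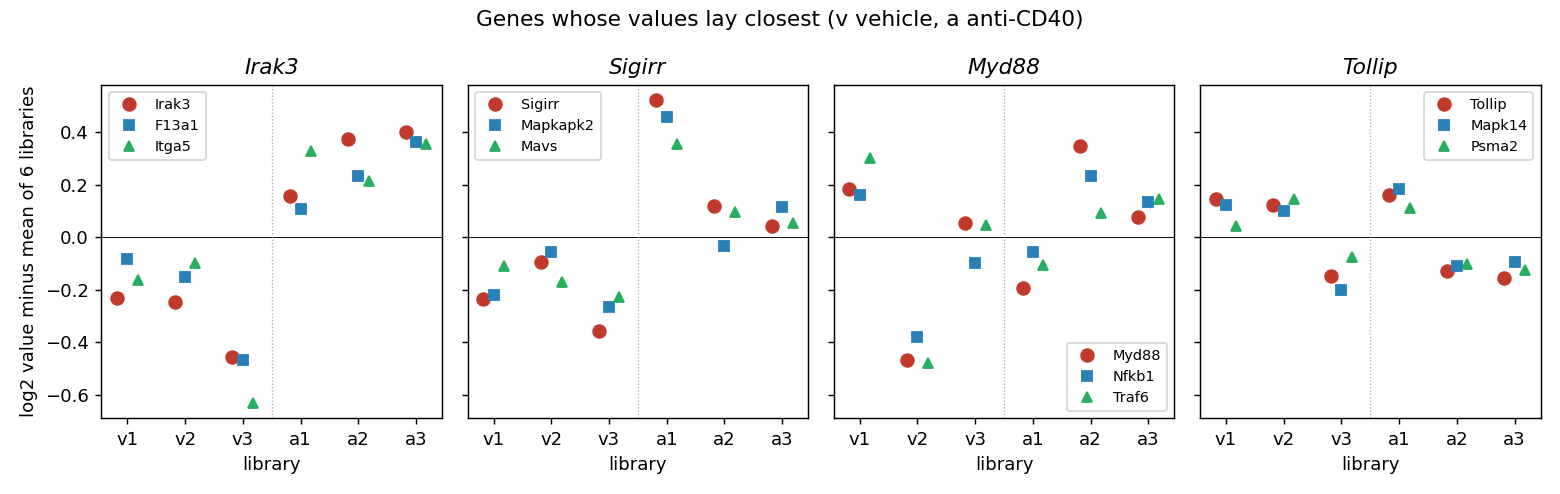
Log2 value minus the mean of the 6 libraries for Irak3, Sigirr, Myd88 and Tollip (red circles) and the closest (blue squares) and next closest (green triangles) other gene, in vehicle (v) and anti-CD40 (a) libraries. Irak3, F13a1 and Itga5 were below 0 in all vehicle and above 0 in all anti-CD40 libraries, whereas Myd88, Nfkb1 and Traf6 were lowest in vehicle 2. Such likeness is how the other genes were chosen.

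Promoter sequence is shown for 2 genes whose groups lay apart, Irak3 and Irak1, and for Myd88, whose groups overlapped. Promoters of 8 of the 10 genes, without Ticam2 and Sigirr, were taken from the RefSeq table in build GRCm38.p6. Each window is the 250 bases before the most upstream listed start, 5′ to 3′ on the gene's strand, which is the minus strand for all 3. The windows are chr10:120202131-120202380 for Irak3, chrX:74023922-74024171 for Irak1 and chr9:119340019-119340268 for Myd88. Capitals mark matches, on either strand, to a GC box (GGGCGG), an AP-1 site (TGANTCA), the NF-κB consensus, a PU.1 site (GAGGAAGT), a cyclic AMP response element (TGACGTCA), a CCAAT box (CCAAT) and a TATA box (TATAAA).
Irak3: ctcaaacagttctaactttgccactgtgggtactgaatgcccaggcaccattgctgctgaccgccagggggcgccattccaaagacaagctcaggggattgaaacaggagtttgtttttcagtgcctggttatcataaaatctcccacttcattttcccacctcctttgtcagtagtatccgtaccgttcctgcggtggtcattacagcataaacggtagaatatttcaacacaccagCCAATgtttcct
Irak1: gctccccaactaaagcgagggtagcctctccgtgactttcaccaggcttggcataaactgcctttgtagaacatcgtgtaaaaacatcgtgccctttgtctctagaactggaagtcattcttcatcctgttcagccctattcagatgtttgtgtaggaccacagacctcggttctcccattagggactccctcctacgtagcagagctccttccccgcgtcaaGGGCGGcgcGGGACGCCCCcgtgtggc
Myd88: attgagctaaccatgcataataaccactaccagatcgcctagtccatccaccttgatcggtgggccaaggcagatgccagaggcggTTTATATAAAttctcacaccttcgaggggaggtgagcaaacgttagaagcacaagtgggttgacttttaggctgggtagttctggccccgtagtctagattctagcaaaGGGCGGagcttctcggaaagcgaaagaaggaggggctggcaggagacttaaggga
The Irak3 window held 1 CCAAT match, as did 33.8% of all 32851 promoter windows of this length, and none of the other 6 patterns. The Irak1 window held 1 match to the NF-κB consensus (7.25% of windows) beside 1 GC box (32.7%), and these did not overlap each other. The Myd88 window held 1 GC box and 2 TATA matches that overlap on opposite strands (12.4% of windows hold the TATA pattern). AP-1, PU.1 and cyclic AMP patterns were found in 6.75%, 2.44% and 1.55% of windows and in none of these 3. The GC content was 47.6% for Irak3, 54.8% for Irak1 and 51.2% for Myd88, with a median of 52.4% over all windows. A match describes letters and shows no binding.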

How the data were processed

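RNA of 6 tumour samples was measured. The table that the authors deposited holds, per its name, log2 normalized counts. It has 784 rows: 770 genes, 6 positive and 8 negative controls. The platform, counting software and normalization were not given in the sources used here. Before the logarithm, each of the 4704 values is a whole count (within 0.05) multiplied by a factor of its library, with 4.55 added, so differences of weak genes are understated.

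Deposited log2 values of the 770 genes were compared between groups with limma 3.58.1 in R 4.3.3 (lmFit, eBayes, two-sided, Benjamini-Hochberg, threshold 0.05), with 4 residual and 3.37 prior degrees of freedom. With 3 samples a group, the smallest exact permutation p is 0.1, and no such test was used. Python 3.11.15, pandas 2.3.3 and matplotlib 3.10.9 made the summaries and plots.

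The members and lists were chosen with earlier results of these data known. Named were all family genes, the 2 genes of lowest p in each pathway list, the 2 genes closest to a family gene and, outside this rule and with values known, Traf6, Map3k7, Tlr4, Tlr8, the markers named in the text and Masp2. Lists of T cell, B cell, endothelial and fibroblast markers were also counted: 0 of 11, 4 of 7, 6 of 7 and 6 of 6 measured genes were higher in anti-CD40 tumours, and 0 were called. Above background in all libraries were 5 of the 11 T cell and 0 of the 7 B cell markers. Alternatives were a low-value filter, housekeeping centring, quantile normalization, background subtraction, an added 50, limma with trend, limma-voom, a replicate block and leaving out each library.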

Additional observations from a re-analysis of the deposited data

How the results depend on the processing

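With background subtracted and values floored at 1, limma called 1 gene, Masp2, which is not above background in any library and sat at the floor in all 3 vehicle libraries (adjusted p = 0.00627). Every other setting run called 0 of the genes tested, with a lowest adjusted p between 0.208 and 0.997. No setting called a family gene. The median difference over the family was 0.18 to 0.30 with 1 library left out and 0.13 after quantile normalization, beside 0.19 as reported. For the kinase list the median was −0.019 after quantile normalization. For the transcription factor list, the median was −0.024 after quantile normalization and −0.025 without vehicle 3, in a range of −0.025 to 0.082 with 1 library left out. Ticam2 was the family gene whose difference moved by more than its replicate SD, with background subtracted. With the replicate number as a block, 0 genes were called (lowest adjusted p = 0.964) and 32 had an unadjusted p under 0.05. Same-numbered libraries had correlations of deviations of −0.43, 0.069 and 0.28. The labels give no pairing, and with 3 libraries a group these correlations cannot show whether there was any. Within the family, Ticam2 had the fewest counts, 22 to 43.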
